A study of Drosophila melanogaster and Drosophila simulans with 122 samples.

Results

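The 200 genes whose RNA peaked most sharply in elongating spermatids of wild-type D. melanogaster were described across every D. melanogaster library of a study of miR-983, a microRNA expressed in the testis. For each gene the mean FPKM (fragment counts scaled by transcript length and by library depth) was taken over the D. mel WT cysts of each stage. The score was the elongating spermatid mean plus 1, divided by the largest mean of another stage plus 1, and the 200 genes with the highest score were kept among the 5372 that had an elongating spermatid mean of at least 5 FPKM, out of 17874 genes with FPKM values. These D. mel WT values chose the members, so they are given as a description and without a test. The members' levels in the other lines and in whole testes were not used in the choice.

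Single cysts, each picked by its size and shape under the microscope, were sequenced at 4 stages, the spermatogonia (SG), late primary spermatocytes (pSC), round spermatids (rST) and elongating spermatids (eST). They came from mated males aged 2 to 3 days of 3 lines: dme.WT, the w1118 strain, called D. mel WT here; dme.KO, w1118 with a CRISPR deletion of nearly the whole region of both mir-983 copies, called D. mel KO; and Replacement, in which a single dsi-mir-983a precursor of D. simulans stands in place of the endogenous copies, called the replacement line. Each mutant is a single strain, so that the engineered locus and any other difference between strains cannot be told apart, and the amplified cDNA of 1 cyst is 1 replicate. D. mel WT had 6, 5, 5 and 5 cysts at SG, pSC, rST and eST, D. mel KO had 4, 5, 6 and 6, and the replacement line had 5 at each stage. Whole testes of mated males aged 3 to 5 days, pooled from many males per library, gave 3 libraries per line. The D. simulans samples were not used here.

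In Drosophila a cyst of germ cells divides, grows and transcribes most of its genes as primary spermatocytes, and then passes through meiosis and remodels into long thin spermatids wrapped by a pair of somatic cyst cells. Most of the transcripts that spermatids use are made before meiosis and stored. A small class of genes, called cup and comet genes after the shape of their RNA signal at the tail ends of spermatid bundles, is known to be transcribed after meiosis.

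Counted reads summed to between 14870386 and 23170485 in the 41 cysts of D. mel KO and the replacement line, and to between 15478484 and 21368301 in the 9 testes. The biological coefficient of variation was 60.7% among those cysts and 9.08% among testes, so changes in cysts had far less precision. Stage labels were checked on defining markers. The summed FPKM of 7 late spermatocyte markers was 515 to 849 in D. mel WT pSC and 28.4 to 71.6 in eST cysts. In D. mel KO it was 380 to 832 and 38.2 to 541, and in the replacement line 231 to 1198 and 40.9 to 230.4, so that pSC and eST cysts overlapped in D. mel KO. In SG cysts that sum was 304 to 492 in D. mel WT, 266 to 385 in D. mel KO and 41.9 to 521 in the replacement line. SG and pSC cysts thus overlapped in both mutant lines. The 6 spermatogonia markers summed to 83.6 to 409, 107 to 470 and 129 to 793 in SG cysts of the 3 lines. The highest pSC cysts had 41.1, 23.5 and 59.0. The spermatid markers could not check the eST label in D. mel WT, since 6 of the 10 are members. Cysts labelled eST did not all resemble each other. Each eST cyst was compared with other cysts by mean Spearman correlation over 10552 genes that are not members. The eST mean was over the other eST cysts of all 3 lines, and the means of other stages over its own line only. Differences between lines thus bear on the eST mean alone. D. mel WT eST replicate 3 and replacement eST replicates 3 and 5 had their highest mean with rST cysts. D. mel KO eST replicates 3 and 5 had theirs with pSC cysts. The single most alike cyst was rST replicate 3 for that D. mel WT cyst, but an eST cyst of the same line for the mutant ones. The counts below are therefore also given without those 5 cysts, a choice made after the data were seen.

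Most members were uncharacterised genes of the autosomes. Of the 200, 124 (62%) carried only an annotation number as their symbol, against 51.7% of the 5372 genes. Protein-coding genes made up 184 members and noncoding RNAs 16. The X chromosome held 15 members (7.5%, against 13.1% of the 5372), 2L held 39 (19.5% against 20.6%), 2R held 57 (28.5% against 20.6%), 3L held 38 (19% against 20.1%) and 3R held 51 (25.5% against 23.8%). No member lay on chromosome 4 or Y, which held 26 and 22 of the 5372. The protein-coding members had a median of 2 exons where the 5372 had 3, and 52 of them (28.3%) had a single exon against 17.6%. Median coding length was 945 nt and 906 nt. These shares are descriptions, with no test.

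Some members lay beside each other. Within 5 kb of another member lay 45 of them (22.5%), in 18 clusters. The same share was not computed for the other genes that the rule ranked, so whether it is unusual was not tested. Some of these neighbours are annotations of the same bases, such as CG43731, with 100% of its exonic bases shared with CG17344. The largest cluster held 6 members, hubl, spaw, whip, cola, swif and boly, between positions 8359466 and 8366688 of 2R (BDGP release 6). hubl and spaw are annotated over the same span of it, as are cola and swif. A 3-gene cluster on 2L, between 773547 and 779655, held CG12506, CG13946 and CG13947. Another on 2R, between 10418718 and 10427915, held the peroxiredoxin genes Prx6c and Prx6b with CG12896. hale and schuy were neighbours on 3L, at 19984426 to 19988072, and scpr-B and scpr-A on 3R, at 11240041 to 11242120.

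The median member had 125 FPKM in D. mel WT eST cysts, against 26.1 at SG, 31.3 at pSC and 36.9 at rST. The score ran down from 9.83 for CAH9, a carbonic anhydrase, through 8.47 for the cuticle protein gene Cpr97Eb, 7.45 for CG10650, 6.96 for CG5966, 6.57 for Pif2, 6.55 for cola, 6.09 for scpr-C, 6.07 for CG4073, 6.03 for hubl and the tetraspanin Tsp42Ed, 6.0 for CG31296 and 5.96 for CG13510. The last members inside the limit were CG46385, CG10761, CG17917, P5CDh2 and spaw, with scores from 2.1 to 2.07. Just outside it twz, Obp99a, CG7069, Idgf2 and lncRNA:CR44279 had 2.07.

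The members fell into 3 courses by the stage that came second in D. mel WT. Round spermatids came second for 107 members, spermatogonia for 47 and spermatocytes for 46. The spermatogonia-second members were the lowest at rST, with a median of 5.76 FPKM against 62.6 in the rST-second members, and 60.2 against 218 at eST. A single cyst weighed heavily. D. mel WT eST replicate 4 was the highest of the 5 eST cysts for 138 members and for 45 of the 47 spermatogonia-second ones, replicate 1 was highest for 42, replicate 2 for 12, replicate 5 for 8 and replicate 3 for 0. Without replicate 4 the same rule kept 157 of the 200. In only 21 members (10.5%, against 2.68% of the 5372 genes) did every eST cyst exceed every other D. mel WT cyst.

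**Figure D1:**
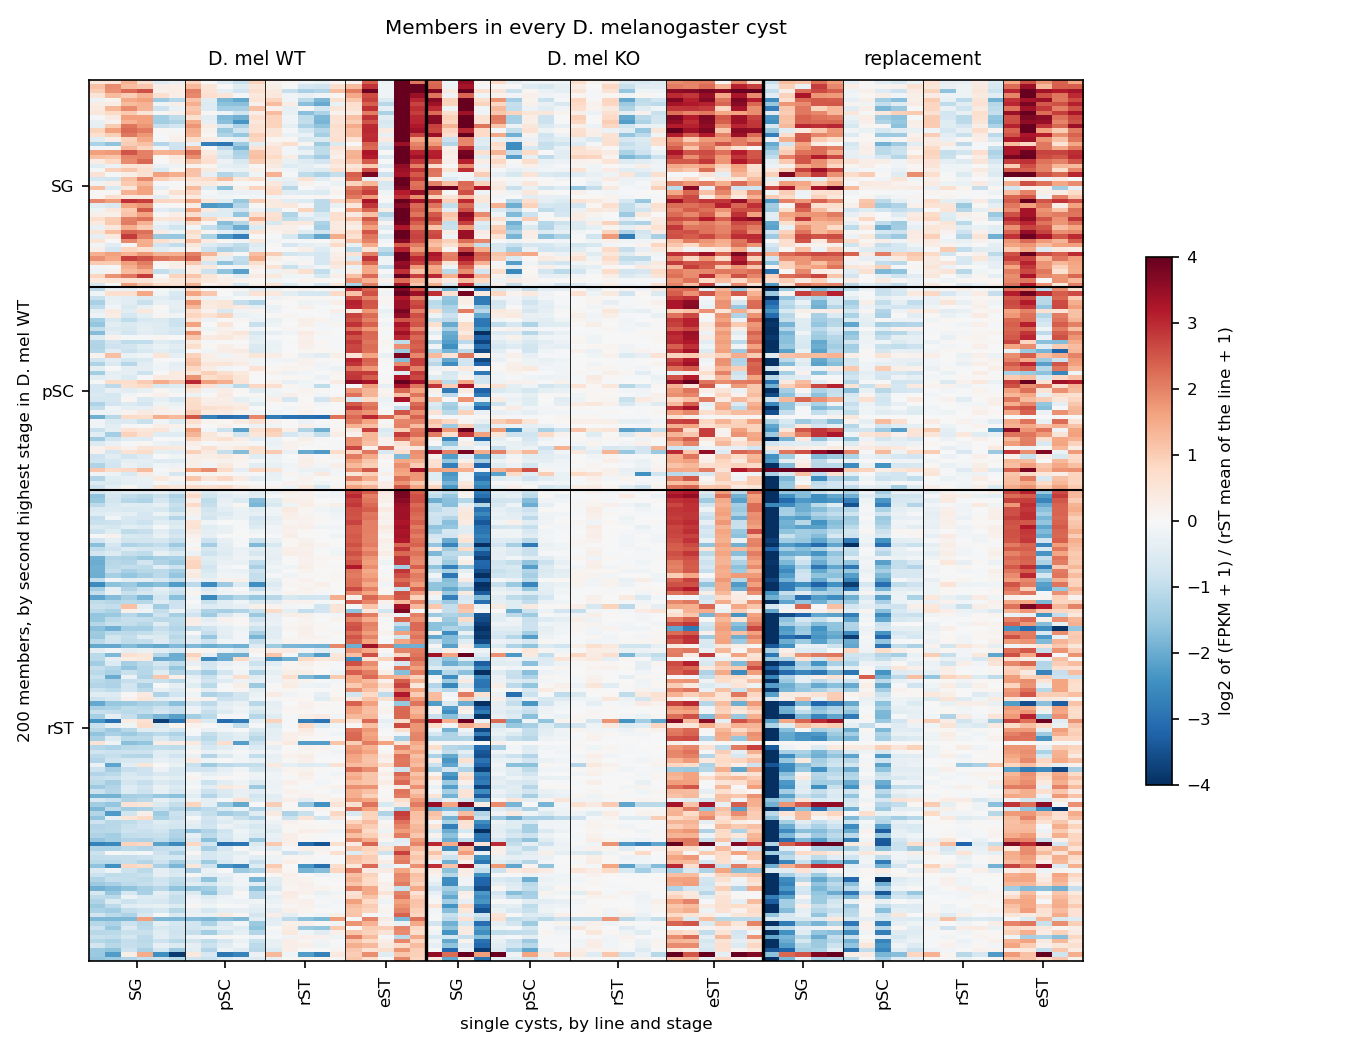
Each row is 1 of the 200 members, grouped by the second highest stage in D. mel WT (47 SG, 46 pSC, 107 rST), and each column 1 cyst. The colour is the log2 of FPKM plus 1 over the rST mean of the same line plus 1, and the eST blocks of D. mel KO and the replacement line are mostly red, with paler cysts among them.

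The eST peak was seen again in cysts that had no part in the choice. In D. mel KO the eST mean was the highest of the 4 stages for 168 members (84%), against 26.6% of the 5372 genes, and in the replacement line for 176 (88%), against 23.8%. The median score was 1.87 in D. mel KO and 2.21 in the replacement line. A score of at least 2 was reached by 93 members (46.5%, against 2.66%) in D. mel KO and by 119 (59.5%, against 4.10%) in the replacement line. Every eST cyst exceeded every cyst of the other stages for 5 members in D. mel KO (2.5%, against 1.73%). In the replacement line this held for 35 (17.5%, against 7.20%). The rule run on D. mel KO cysts gave a list of 200 that shared 101 genes (50.5% of each list) with the members, and on replacement cysts one that shared 114 (57%). Both lists held 83 members and neither held 68. The spermatogonia-second members carried over least, with 6 of 47 on the D. mel KO list and 24 of 47 on the replacement list.

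Cyst by cyst, the share of members at 2 or more times the rST mean of their line varied widely within each line. It was 146, 169, 6, 160 and 180 of 200 in D. mel WT eST replicates 1 to 5. The 6 D. mel KO cysts had 164, 162, 65, 119, 75 and 145, and the 5 replacement cysts had 166, 168, 62, 133 and 120. By the same measure SG cysts had 6 to 43 members in D. mel WT, 14 to 70 in D. mel KO and 4 to 61 in the replacement line. The lowest eST cyst of each line thus lay within or near the range of SG cysts. D. mel KO eST replicates 3 and 5 and replacement eST replicate 3 each had 41 of the 47 spermatogonia-second members raised. Over all genes that met the FPKM minimum of the rule, the share also varied between cysts. It was lowest in D. mel WT replicate 3 (0.47%, against 3.0% of members). It was highest in D. mel KO replicate 3 (22.6%, against 32.5% of members), so the 65 there were not far above the background. The member share was the higher in every eST cyst. The 3 lines overlapped, and the cysts with the fewest raised members, replicate 3 of D. mel WT, replicates 3 and 5 of D. mel KO and replicate 3 of the replacement line, were among the 5 that resembled another stage over the other genes.

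**Figure D2:**
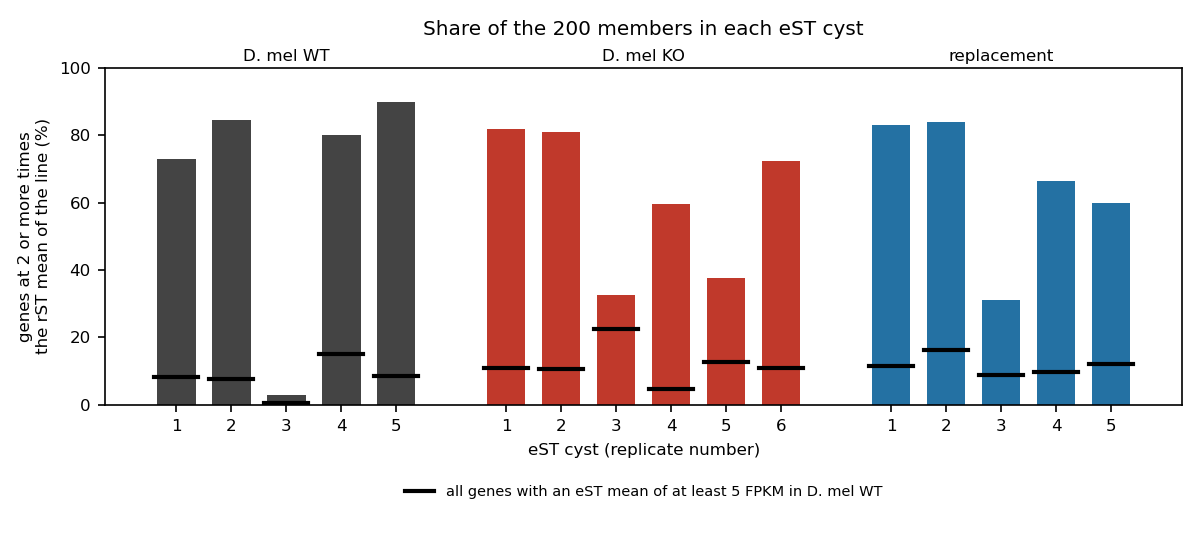
Bars show the percentage of the 200 members at 2 or more times the rST mean of their line in each eST cyst, and black lines the same percentage over the 5372 genes. D. mel WT replicate 3 has 6 members there and D. mel WT replicate 5 has 180.

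Counts were then tested for the lines the rule did not use, with edgeR's quasi-likelihood test over 13294 genes and calls at an absolute log2 fold change above 1 with an adjusted p under 0.05. Of the 200 members, 177 passed the count filter, 2 of them only through the eST groups. Of the 23 others, 20 had no counted read in these cysts, and 21 shared at least 50% of their exonic bases with another gene, where the counting drops reads. Among them were hubl, spaw, cola and swif, for which FPKM is the only measure. Fewer cells of a kind and less RNA per cell cannot be told apart in any of these libraries.

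In D. mel KO, 109 of the 177 were higher in eST than in rST cysts and 0 lower, where 9.87% of all genes tested were called higher and 6.3% lower. The 0 lower calls stood beside 142 members with an unadjusted p under 0.05 in either direction, and DESeq2 also called 0 lower, with 126 higher. In the replacement line 103 were higher and 2 lower, where 10.5% of all genes were called higher and 6.9% lower. The members' median log2 fold change was 1.93 in D. mel KO, with 0.28 over all genes, and 1.94 in the replacement line, with 0.35. Without the 5 cysts that resembled another stage, 131 were higher in D. mel KO, and 135 were higher and 3 lower among replacement cysts. Leaving out D. mel KO eST replicate 2 alone lowered the D. mel KO count to 72.

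Against the earlier stages the members were higher too. In D. mel KO 148 of the 177 were higher in eST than in pSC cysts and 0 lower (6.95% and 8.28% of all genes). Against SG 117 were higher and 0 lower (16% and 29.3% of all genes). At an unadjusted p under 0.05 there were 161 and 126 members, in either direction. Size factors taken from DESeq2 moved the median of all genes by over 0.1 in these comparisons, from -0.27 to -0.05 and from -0.13 to 0.27 on the log2 scale. In the replacement line 161 were higher than in pSC and 0 lower (14.6% and 20.4% of all genes), and against SG 155 were higher and 2 lower (24.9% and 30.9% of all genes). The 2 lower ones were lncRNA:Hsromega, a stress-responsive noncoding RNA, and CG31676. eST exceeded each of the 3 other stages for 70 members in D. mel KO (1.28% of all genes) and 91 in the replacement line (2.75%), 43 of them in both. The call against rST was made in both lines for 83 members (5.95% of all genes) and in neither for 46. For the 43 and the 46 the share of all genes was not computed.

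The courses differed in which contrast passed. Of the 45 spermatogonia-second members tested, 40 were higher in eST than rST in D. mel KO and 41 in the replacement line, while only 12 were higher than SG in D. mel KO. Of the 95 rST-second members 41 and 40 were higher than rST. Of the 37 spermatocyte-second members 28 and 22 were. Since the course was read from D. mel WT, these counts describe how it carried over and are not a test between courses.

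The post-meiotic cup and comet genes were among the members most often. Of 21 genes on the cup list used 11 were matched by symbol, and 7 of them were members (d-cup, r-cup, p-cup, wa-cup, w-cup, f-cup and whip). That list also holds whip, soti and sowi, whose symbols do not carry the cup name. Whether they belong to the cup or the comet class was not checked. The members m-cup, cola and spaw were on neither list and are not in the counts of either class. m-cup had log2 fold changes of 1.49 in D. mel KO, a call lost without D. mel KO eST replicate 2, and 0.21 in the replacement line, which did not pass. Of 14 comet genes 11 were matched, and 8 were members (schuy, hale, boly, hubl, swif, scpr-A, scpr-B and scpr-C). In the eST against rST test 4 of the 11 cup genes were higher and 1 lower in D. mel KO, and 1 was higher and 4 lower in replacement cysts. The median log2 fold changes were 1.24 and 1.31. Of the 9 comet genes tested 5 were higher and 1 lower in D. mel KO, and 5 were higher and 2 lower in the replacement line, with medians of 2.00 and 2.21. soti and mil, which are not members, were lower in both lines.

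f-cup had 597, 412, 70.3, 789.9 and 487 FPKM in D. mel WT eST replicates 1 to 5 and 60.6 to 84.0 in rST cysts. In D. mel KO its eST cysts had a lowest value of 22.5, a median of 281 and a highest of 855 FPKM, and in the replacement line 533, 640.3, 29.4, 572 and 292. In each line most eST cysts lay well above rST, and at least 1 lay within or below the rST range. It was higher in D. mel KO (edgeR, log2 fold change 2.78 ± 0.63, adjusted p = 0.00209) and in the replacement line (log2 fold change 2.63 ± 0.69, adjusted p = 0.00641, errors being standard errors here and below).

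boly, a comet gene, gave a like picture. Its D. mel WT eST cysts had 2005, 1373, 429.7, 2791 and 1545 FPKM, the D. mel KO ones a lowest value of 577, a median of 1227 and a highest of 2335, and the replacement ones 2327, 2359, 282, 1896 and 991, where rST cysts of all lines had 314 to 496. Every D. mel KO eST cyst was above every rST cyst, and replacement replicate 3 was below. It was higher in both lines (edgeR, log2 fold change 2.00 ± 0.52, adjusted p = 0.006 in D. mel KO, and log2 fold change 2.21 ± 0.57, adjusted p = 0.00596 in the replacement line). hale was likewise higher in both (2.21 and 2.33 on the log2 scale). r-cup, p-cup and whip were called in D. mel KO only (2.45, 2.41 and 2.12). Their replacement values of 1.35, 1.86 and 1.83 did not pass, and the difference between lines was not called for any of them. Without D. mel KO eST replicate 2, p-cup (1.81) and whip (1.66) no longer passed in D. mel KO. schuy and w-cup passed in neither line, with log2 fold changes of 1.41 and 1.32 in D. mel KO and 1.62 and 1.61 in the replacement line.

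The 3 scpr genes, a small family named for sperm-coating protein relatives, followed the spermatogonia-second course. scpr-C had 709, 2242, 229, 9019 and 2759.8 FPKM in D. mel WT eST cysts, a lowest value of 671, a median of 1641 and a highest of 2074 in D. mel KO and 2758, 3753, 4110.5, 1597 and 2290.1 in the replacement line. D. mel WT replicate 4 stood above all others, while every D. mel KO and every replacement eST cyst exceeded every rST cyst of its own line, where the highest had 275 and 748. All 3 were higher in both lines, with log2 fold changes of 2.99, 3.30 and 3.35 in D. mel KO and 3.32, 3.19 and 3.13 in the replacement line for scpr-A, scpr-B and scpr-C. None passed against SG in D. mel KO, where SG cysts reached 2972 FPKM for scpr-C. How reads were divided among these related copies was not examined.

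Of the 4 members that bind mRNA or act on translation, 3 were higher in both lines. These were orb, a translational regulator of the CPEB family, Imp, an mRNA-binding protein, and Thor, a repressor of cap-dependent translation. orb had 689.6, 505, 111, 378 and 549 FPKM in D. mel WT eST cysts, a lowest value of 90.8, a median of 307 and a highest of 779 in D. mel KO and 379, 469, 89.4, 253 and 299.7 in the replacement line, against 89.4 to 122, 92.5 to 111 and 115 to 145 in the rST cysts. 2 D. mel KO cysts and 1 replacement cyst lay within or below the rST range, and the others were above it. orb was higher in D. mel KO (edgeR, log2 fold change 2.29 ± 0.54, adjusted p = 0.00296) and in the replacement line (log2 fold change 1.66 ± 0.58, adjusted p = 0.0396), and Imp too (2.00 and 2.23). The orb call in the replacement line was lost without any 1 of its eST replicates 1, 2 and 4 and rST replicates 1 to 5, at values from 1.42 to 1.72, and with DESeq2 size factors (1.63). Tob, of a family linked to mRNA deadenylation, was called in neither (1.31 and -1.10).

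Members with known metabolic and protective roles were mixed. Of 7 for detoxification and redox, 5 were higher in both lines (GstE3, GstD3, Prx6b, Prx6c and Sod3), and GstE8 and GstE10 were in neither. Of 6 tested transporters and channels 5 were higher in both, and Glut3, a glucose transporter relative, had log2 fold changes of 2.00 and 1.95 that did not pass. Of 8 tested metabolic enzymes 5 were higher in both, among them PCB, pyruvate carboxylase, and Aldh, an aldehyde dehydrogenase. The cytoskeletal members Mtl and wash were higher in both, as were the ubiquitin ligases sina and Nedd4. Several of these calls rested on single cysts. Without D. mel KO eST replicate 2, wash (1.06) and Nedd4 (1.11) were lost in D. mel KO. GstE3 was lost there without any 1 of eST replicates 1, 2 and 5 and rST replicates 1 to 4, at 1.13 to 1.29. In the replacement line Nedd4 was lost without eST replicate 2 or 4 or rST replicate 1 (1.14 to 1.35), and Prx6b without eST replicate 1 (2.04). Of the other transporters and enzymes counted, MCU, the mitochondrial calcium channel, lost its call without any 1 of eST replicates 1 and 2 and rST replicates 1 to 5 in D. mel KO (0.94 to 1.34) and of eST replicates 1, 2 and 4 and rST replicates 1 to 4 in the replacement line (1.24 to 1.51), the sodium channel relative ppk30 without D. mel KO rST replicate 1 (2.01), and CAH1, a carbonic anhydrase, without replacement rST replicate 2 (2.68). The roles were assigned after the values had been seen.

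PCB had 74.3, 60.2, 5.64, 109 and 63.5 FPKM in D. mel WT eST cysts, a lowest value of 20.6, a median of 24.7 and a highest of 106 in D. mel KO and 53.8, 142, 10.8, 83.4 and 71.6 in the replacement line, and at most 9.75 in any rST cyst. In both mutant lines every eST cyst was above every rST cyst. Its log2 fold change of 3.56 ± 0.70 in D. mel KO (edgeR, adjusted p = 0.000657) and 3.80 ± 0.78 in the replacement line (adjusted p = 0.000786) was among the 5 largest by the mean of both lines.

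The largest in each line was that of CG5966, at 5.31 ± 0.89 in D. mel KO (edgeR, adjusted p = 0.000124) and 4.87 ± 0.94 in the replacement line (adjusted p = 0.000432). It had 2.69, 7.01, 0.153, 55.9 and 13.3 FPKM in D. mel WT eST cysts, a lowest value of 2.49, a median of 7.86 and a highest of 12.2 in D. mel KO and 4.51, 24.1, 7.20, 5.19 and 10.2 in the replacement line, and no rST cyst of any line was above 0.788. CG10650 (4.29 and 4.16), CG9664 (4.31 and 3.94) and NT5E-2, a 5-prime nucleotidase relative (3.78 and 3.97), completed the 5 largest by that mean. All but PCB followed the spermatogonia-second course. In single lines CG17917 (4.42) and CG9812 (4.21) in D. mel KO, and CheB38c (4.29) and MFS9 (3.89) in the replacement line, also lay above PCB.

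Markers of other cell types were set beside these results. Of 20 muscle sheath markers, none of them a member, 7 were higher in eST than rST in D. mel KO and 10 in the replacement line, and their summed FPKM ran from 300.4 to 793 in D. mel KO eST cysts and from 629 to 786 in replacement ones, where rST cysts had 311 to 376 and 358 to 431. The sum over the 5 defining muscle genes Mhc, Mlc1, Mlc2, up and wupA was 5.16 to 29.4 in D. mel WT eST cysts, and up was at 0 in the lowest. It was 7.12 to 38.5 in D. mel KO eST cysts, against 4.83 to 14.2 in rST cysts, and 8.76 to 82.8 in replacement eST cysts, against 7.54 to 19.8. Of 29 tested accessory gland and ejaculatory duct markers 2 were higher and 2 lower in D. mel KO and 10 higher in the replacement line, although their summed FPKM was 19.8 to 65.5 in replacement eST cysts and 63.8 to 124 in rST cysts. In SG cysts the sum was 1739 to 4905 in D. mel WT, 31.7 to 747 in D. mel KO and 108 to 287 in the replacement line. Hemocyte and fat body markers were higher for 2 and 4 of 16. Cyst cell markers, with Fas3 as the member among them, were higher for 0 and 3 of 19 and summed to 59.4 to 151 in D. mel WT eST cysts. The part of these cells in the members' rise was not tested.

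Of 18 gene lists 15 held no member. Among these 7 of 11 sperm chromatin proteins were lower in D. mel KO (6.3% of all genes) and 5 of 11 in the replacement line (6.9%), with median log2 fold changes of -2.13 and -1.54. The Mst and don juan tail genes had 0 higher and 3 lower of 20 in D. mel KO and 2 higher and 2 lower in replacement cysts. The 26 axoneme genes had a median of 0.02 in D. mel KO with no call, and 1 higher and 6 lower in the replacement line. Individualization genes had 3 higher and 1 lower of 22 in each line, testis proteasome paralogs 1 and 1 of 14 in each, and mitochondrial paralogs 2 and 4 of 24 and 3 and 6. The 8 sperm leucyl aminopeptidases had median log2 fold changes of 0.59 and 0.30, and the 33 ribosomal proteins of 0.62 and 0.80, with no call. Heat shock genes had 2 higher and 3 lower of 16 in D. mel KO, and 4 higher in the replacement line. Spermatogonia markers had 2 lower of 11 in each line, and spermatocyte markers 4 higher and 1 lower of 17 in D. mel KO and 1 and 1 in the replacement line. Immune effector genes had 1 higher and 1 lower of 13 in D. mel KO, and a median of -0.53 in the replacement line.

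**Figure D3:**
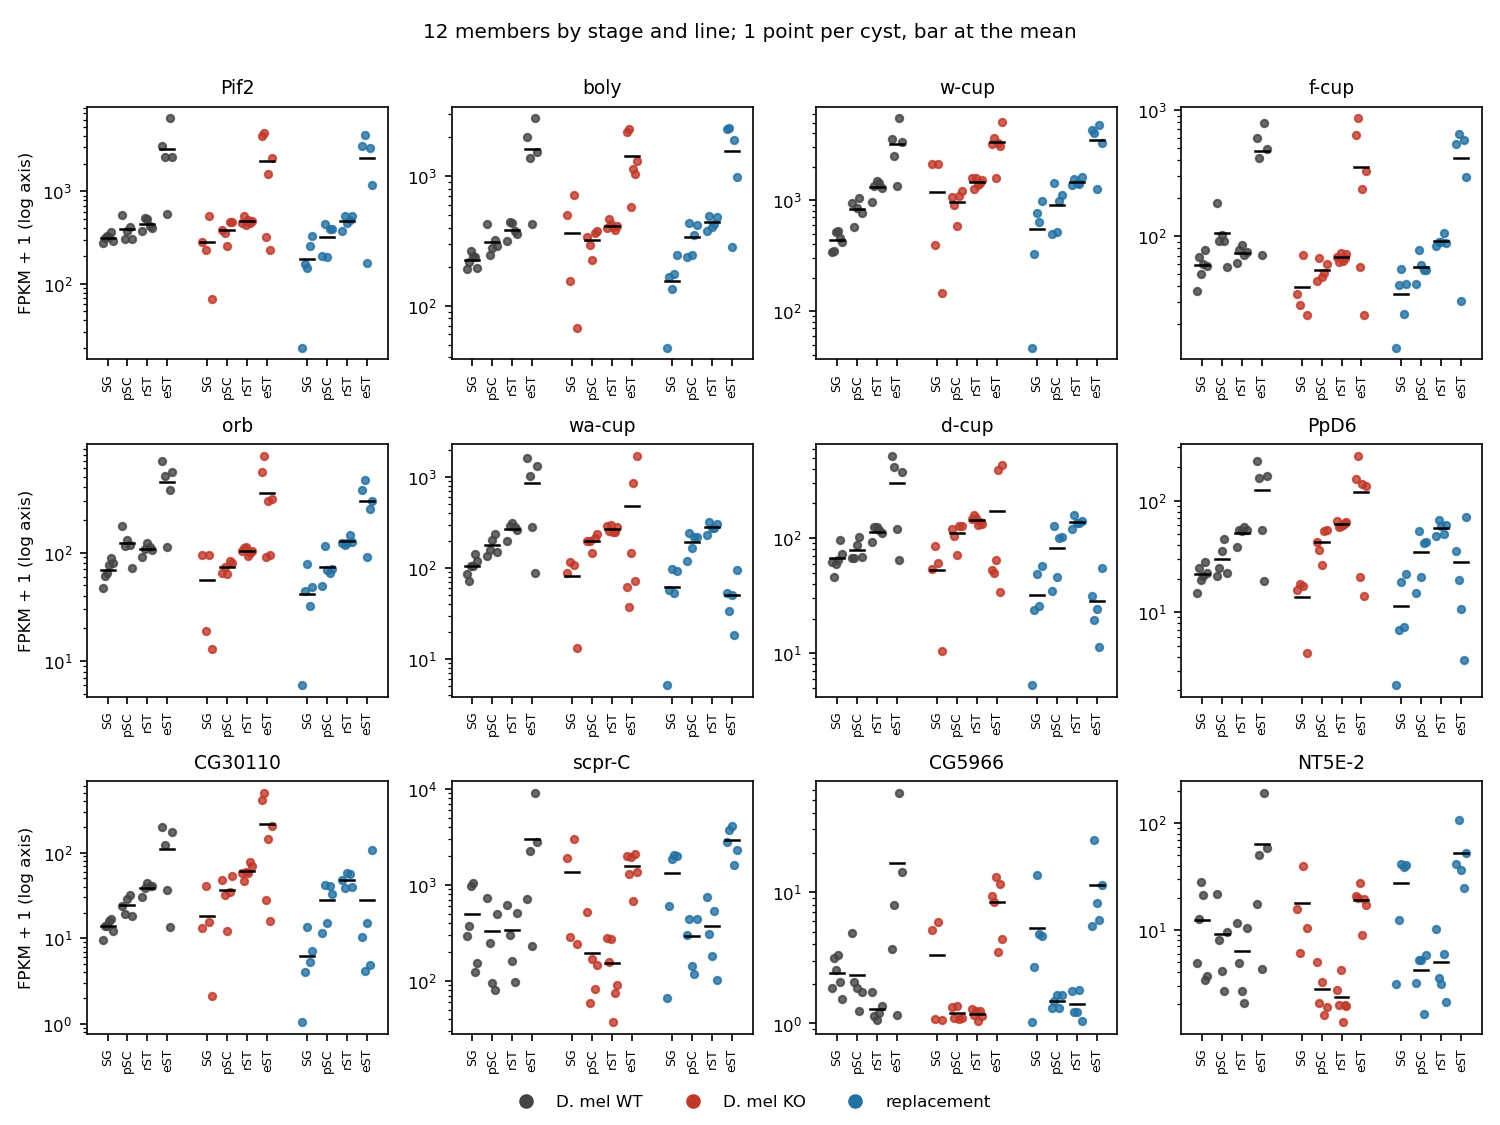
FPKM plus 1 on a log axis for 12 members, with 1 point per cyst and a bar at the mean of each stage and line. Pif2, boly, w-cup, f-cup, orb, CG5966 and NT5E-2 have higher eST than rST means in the 3 lines, while the replacement eST means of wa-cup, d-cup, PpD6 and CG30110 lie below their rST means.

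A subset departed from the rest in the replacement line. wa-cup had 1618, 1022, 281, 86.7 and 1314 FPKM in D. mel WT eST cysts and 199 to 314 in rST cysts. D. mel KO eST cysts had a lowest value of 36.7, a median of 107 and a highest of 1715, and replacement ones 51.9, 32.5, 49.7, 17.3 and 94.9, all below the 228 to 321 of the replacement rST cysts. Among D. mel KO cysts 2 were above the rST range and 4 below it. It was lower in eST than rST in the replacement line (edgeR, log2 fold change -2.42 ± 0.72, adjusted p = 0.0155), and the D. mel KO value did not pass (log2 fold change 0.92 ± 0.63, adjusted p = 0.318).

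d-cup behaved alike, with 30.7, 18.3, 23.1, 10.2 and 53.5 FPKM in replacement eST cysts against 119 to 158 in rST cysts (edgeR, log2 fold change -2.49 ± 0.64, adjusted p = 0.00601). Its D. mel KO value was 0.26 on the log2 scale. d-cup overlaps the member asRNA:CR44235, which lies on the opposite strand, and counting without strand cannot part a gene from its antisense partner. CG32086, Tob and PpD6, a protein phosphatase, followed by the mean of both lines, with -1.43, -1.10 and -1.02 in the replacement line and 0.31, 1.31 and 1.26 in D. mel KO, none of which passed. lncRNA:Hsromega was at -1.49 in the replacement line and at 1.98 in D. mel KO, and passed in neither.

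The same genes were low in 1 wild-type cyst. In D. mel WT eST replicate 4, the highest cyst for most members, 28 members lay below the rST mean, wa-cup, d-cup, m-cup, r-cup and p-cup among them. Of these 28, 10 were below the replacement rST mean in at least 4 of the 5 replacement eST cysts (CG15548, CG34106, wa-cup, Tob, CG30110, d-cup, PpD6, CG32086, Cpr66Cb and CG30484), and 1 of the other 172 was. 4 of them, wa-cup, Tob, d-cup and CG32086, were below it in every replacement cyst. Between 1 and 23 of the 28 were below the rST mean in the 6 D. mel KO cysts. The subset was picked on seen values and has no test.

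The difference between the lines was called for no member. In the interaction test of eST against rST between the replacement line and D. mel KO, edgeR called 0 of 13294 genes (0% of the background) and 0 of the 177 members, and DESeq2 called 3 genes higher and 2 lower, none of them a member. At an unadjusted p under 0.05 there were 10 members and 458 of all genes (3.45%). The members' differences had a median of 0.21 on the log2 scale, which ranged from -0.02 without replacement eST replicate 2 and 0.02 without replacement eST replicate 4 to 0.46 without D. mel KO eST replicate 2, so that its sign rested on single cysts. CheB38c (3.36 ± 0.96), wa-cup (-3.34 ± 0.95) and lncRNA:Hsromega (-3.47 ± 1.17) were farthest from 0, and none had an adjusted p under 0.974.

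**Figure D4:**
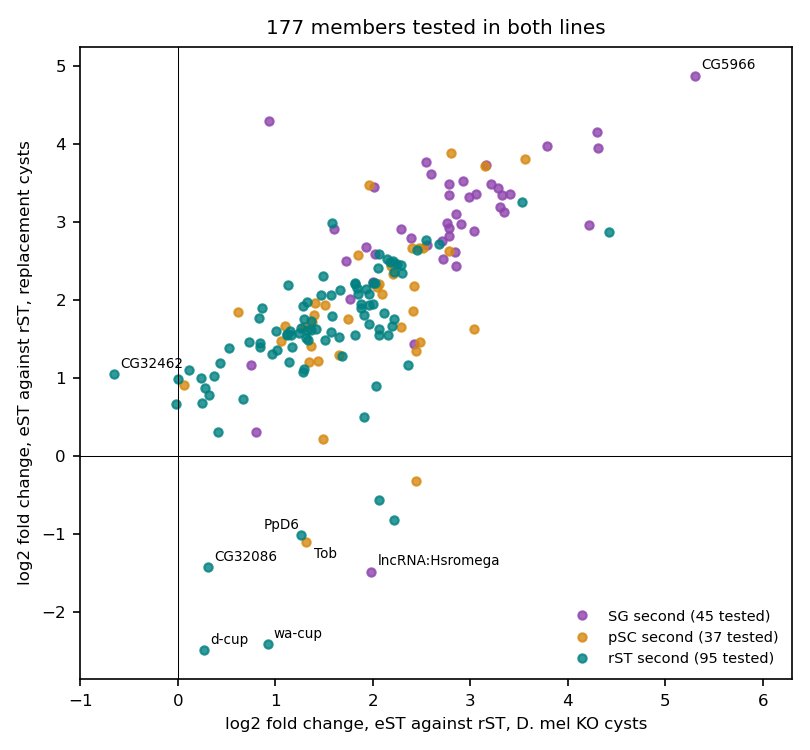
Log2 fold changes of eST against rST cysts for the 177 tested members, with D. mel KO on the x axis and the replacement line on the y axis, coloured by the second highest stage in D. mel WT. Most lie in the upper right, CG5966 at 5.31 and 4.87, and d-cup and wa-cup lie below 0 on the y axis only.

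At eST the replacement line and D. mel KO differed in few members. Of 12452 genes tested 200 (1.61%) were called, and 1 of the 180 members tested, 3 of which passed only through the D. mel WT cysts. That member was CheB38c, of a family named for chemosensory proteins. It had 56.3, 75.3, 18.3, 15.4 and 26.6 FPKM in replacement eST cysts and a lowest value of 0.359, a median of 1.12 and a highest of 3.30 in D. mel KO, and the lines did not overlap. Its log2 fold change was 4.94 ± 0.75 (edgeR, adjusted p = 0.000672). DESeq2 called 3 members higher and 8 lower (193 and 271 of 12452 genes). A fit of only both groups called 6 higher and 0 lower (118 and 133 of 12238 genes). In the main fit 30 members had an unadjusted p under 0.05 (14% of all genes).

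Whole testes, with a far smaller spread, gave few calls among the members and no common direction. Of 178 members tested, D. mel WT exceeded D. mel KO for 6 and fell short of it for 5, where 2.22% and 2.93% of 12845 genes were called. The replacement line exceeded D. mel KO for 4 and fell short for 4 (1.92% and 4.27% of all genes). D. mel WT exceeded the replacement line for 10 and fell short for 7 (4.82% and 2.85% of all genes). The members' median log2 fold change was 0.01, 0.07 and -0.04. The 3 comparisons share libraries. In all, 21 members were called in at least 1 of them, and for 7 D. mel WT differed from both other lines in the same direction.

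Noncoding RNAs were among them. lncRNA:CR43434, on 3R between 26428590 and 26429173, had 54, 31 and 31 reads in D. mel WT testes and none in the 6 testes of the other lines, a difference of at least 38.8-fold against D. mel KO and at least 44.5-fold against the replacement line at a floor of 3 counts over the group. lncRNA:CR45408, on 3L between 9222024 and 9222433, had 153, 95 and 95 reads in D. mel WT testes, 0, 0 and 1 in D. mel KO and none in the replacement line. Its ratio to D. mel KO was 344 (95% counting interval 61.3 to 13617), and against the replacement line it was at least 132-fold higher. The intervals and floors cover counting error only. In cysts both were near 0 in D. mel KO and the replacement line and at most 17.8 and 72.3 FPKM in D. mel WT eST cysts.

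lncRNA:CR44081, on 2L between 6812640 and 6813110, had 150.4, 108 and 100.2 normalized reads in D. mel WT testes, 8.55, 9.98 and 10.3 in D. mel KO and 20.5, 15.9 and 18.5 in the replacement line. The lines did not overlap (edgeR, D. mel WT against D. mel KO, log2 fold change 3.62 ± 0.25, adjusted p = 2.83e-07). lncRNA:CR46088, on 3R between 22928593 and 22929129, went the other way, with 51.1, 61.4 and 29.3 in D. mel WT, 252, 325 and 277 in D. mel KO and 253, 272 and 246 in the replacement line (log2 fold change -2.57 ± 0.18, adjusted p = 2.93e-07). It too had no overlap between D. mel WT and either other line.

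CG32086, on 3L between 11582401 and 11584064, had the highest mean in D. mel WT testes of the members called against D. mel KO, with 3270.4, 3166 and 3219 normalized reads in D. mel WT testes, 708, 722 and 726 in D. mel KO and 753, 821 and 888 in the replacement line. D. mel WT was above both (edgeR, against D. mel KO, log2 fold change 2.16 ± 0.06, adjusted p = 5.71e-11). The same gene had 67.2 to 120.0 FPKM in D. mel WT rST cysts and 22.4 to 25.4 and 19.3 to 25.2 in those of the other lines. nSyb, a synaptobrevin of vesicle fusion, was lower in D. mel WT testes than in those of D. mel KO (-1.84 on the log2 scale), as was CG30110 (-1.14). The remaining calls of that comparison were lncRNA:CR46111 and CG13946, higher in D. mel WT (1.39 and 1.13), and CG12506 and CG13947, lower (-1.64 and -1.22). CG12506, CG13946 and CG13947 are the 2L cluster named above, in which CG13946 moved against its neighbours. The call of CG13946 was lost without D. mel WT testis replicate 1 (0.997 on the log2 scale).

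CheB38c was higher in replacement than in D. mel KO testes as well, with 75.1, 88.7 and 88.8 normalized reads against 18.2, 6.65 and 12.2, and 25.1, 18.7 and 22.5 in D. mel WT (edgeR, log2 fold change 2.76 ± 0.28, adjusted p = 9.93e-06). Prx6b (1.98 on the log2 scale), CG13946 (1.51) and CG31676 (1.5) were the others higher in the replacement line, and GstE10 (-3.20), CG13947 (-2.17), CG32681 (-1.91) and CG9812 (-1.57) were lower. No tested cup or comet member was called in testes.

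**Figure D5:**
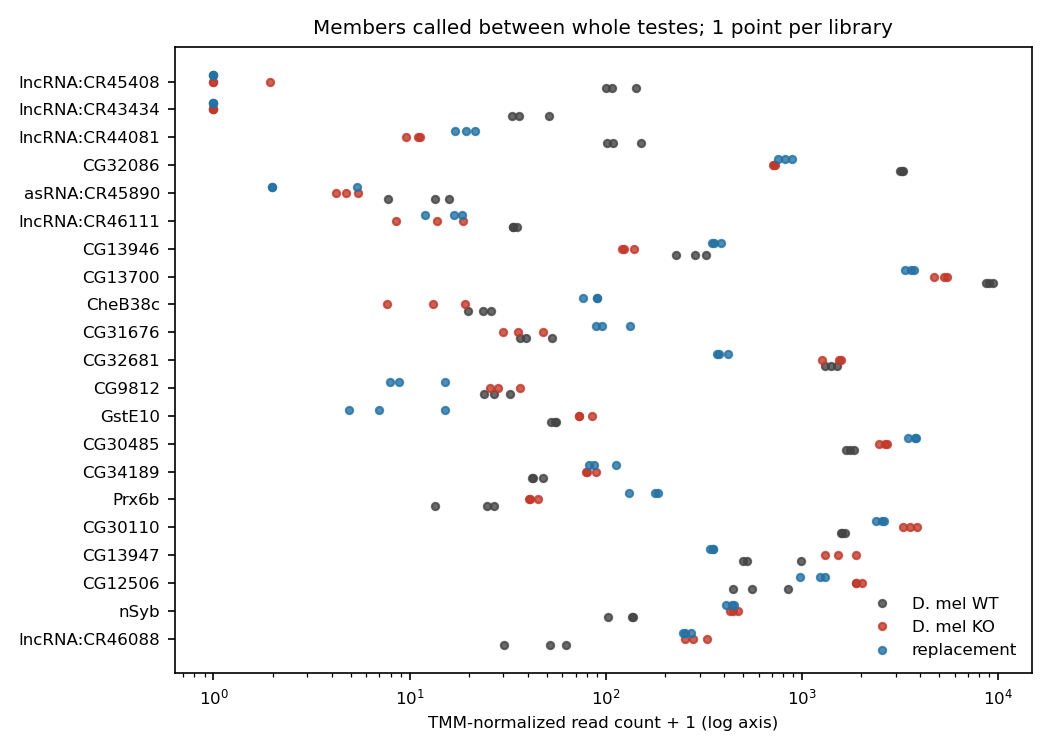
TMM-normalized reads plus 1 on a log axis in the 9 testis libraries, for the 21 members called in at least 1 comparison between lines, ordered by the ratio of D. mel WT to D. mel KO. lncRNA:CR45408 and lncRNA:CR43434 at the top are near 0 outside D. mel WT, and lncRNA:CR46088 at the bottom is lowest in D. mel WT.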

How the data were processed

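RNA-seq of 62 single cysts and 9 whole-testis libraries of D. melanogaster was used. The authors trimmed reads with Trimmomatic 0.36, mapped them with HISAT2 2.2.0, and deposited FPKM values from StringTie 2.1.4 and raw read counts per gene from HTSeq 0.6.0, counted without strand and only where reads fell on 1 gene, which leaves overlapping genes, antisense partners and close copies uncertain. Deposited FPKM values chose and described the members. Deposited counts entered the two-sided quasi-likelihood test of edgeR 4.0.16 (R 4.3.3, limma 3.58.1) after TMM normalization, for genes whose normalized count averaged over 5 in some group, with Benjamini-Hochberg adjustment over all genes tested. A call needed an adjusted p under 0.05 and a log2 fold change beyond 1 in size. There was 1 fit for D. mel KO and replacement cysts, 1 for eST cysts of 3 lines and 1 for testes. Each cyst or testis pool is a separate sample per the labels. Gene positions and types came from Ensembl 115 (BDGP release 6). Python 3.11.15 with pandas 2.3.3 drew the summaries. The tests were also run on simulated counts with a common spread for all genes and independent libraries. That setting does not copy the unevenness among the real eST cysts.

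The members and gene lists were chosen with earlier results of these data known, and roles were assigned after values had been seen. The genes named are the 12 highest scores, the 5 on either side of the limit, members on a gene list, the 5 largest and 5 smallest eST against rST changes, and the largest calls of the other comparisons (up to 8 at eST and 5 in testes). Others named were chosen after their values were seen. Alternatives were DESeq2 1.42.0, its size factors, no filter, a filter of 50, the replicate number as a block, only the groups compared, leaving out each replicate, and for the rule other offsets (0.1 and 5), minimums (1 and 10 FPKM) and medians. No sequence is shown.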

Additional observations from a re-analysis of the deposited data

Results flagged for a closer look

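Samples far from the others of their group were sought in 84 groups, and 10 values stood out. The groups share cysts, and D. mel WT eST values chose the members, so no chance rate applies to this count. The median log2(FPKM + 1) of the 200 members was 5.49 in D. mel WT pSC replicate 1, the highest of 5 cysts, 5.29 in D. mel WT eST replicate 3, the lowest of 5, and 1.79 in replacement SG replicate 1, the lowest of 5. D. mel WT eST replicate 3 also had only 6 members at 2 or more times the rST mean, the lowest of 5.

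Among single members, CG30110 was highest in replacement eST replicate 5, at 105 FPKM. D. mel WT eST replicate 4 was the highest of its 5 cysts, far above the rest, for CAH9 (107 FPKM), scpr-C (9019 FPKM), CG5966 (55.9 FPKM), Sod3 (425 FPKM) and NT5E-2 (192 FPKM).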

How the results depend on the processing

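Most counts of called members stayed within 1.5 times their value under every alternative run. The number of members higher in eST than rST in D. mel KO fell from 109 to 72 without D. mel KO eST replicate 2. It ranged from 72 to 125 over single left-out cysts, and the replacement count of higher members from 75 to 116. The ranges of calls that follow count both directions. Leave-one-out ranges were 115 to 152 (eST against pSC, D. mel KO), 114 to 121 (eST against SG, D. mel KO), 157 to 161 and 148 to 157 (the same in the replacement line), 0 to 0 (difference between lines), 1 to 2 (replacement line against D. mel KO at eST), 11 to 14, 8 to 9 and 16 to 20 (testes, in the order of the report) and 157 to 199 (members kept by the rule). For the replacement line against D. mel KO at eST, DESeq2 called 11 members, a fit of only both groups 6, and the fit without the 5 cysts that resembled another stage 3, where 1 was called. Over all genes these fits called 193 higher and 271 lower, 118 and 133, and 32 and 61. With members chosen by medians, 7 and not 11 were called in testes for the first comparison of lines. The cause of these shifts was not tested. Other offsets kept 191 (0.1) and 175 (5) members, other minimums 185 and 182, and medians 159.

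No call of a named gene turned into a call in the other direction. For eST against rST, 64 genes were followed, whether or not the main fit called them, so the next counts are not shares of calls. Under at least 1 alternative, 12 lost a call and 8 gained one in D. mel KO. In the replacement line 10 lost a call and 13 gained one. m-cup, whose lost call is given above, was not among the 64. In testes calls were lost for 1 of the 11 and 3 of the 17 genes called between D. mel WT and the other lines. Same-numbered samples deviated together with a median correlation of 0.026 in cysts of both lines and 0.022 in testes, against -0.007 and -0.008 for other pairs. In eST cysts it was 0.101 against -0.021, and 53.3% of same-numbered pairs were above 0.1. Whether replicate numbers pair the eST cysts was thus not settled. With the number as a block the eST fit also called 1 member. With the replicate number as a block 89 members were called in D. mel KO and 82 in the replacement line. Of the 23 untested members 20 had no counted read.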

Other observations

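The lists that the rule gave in D. mel KO and in replacement cysts shared 126 genes (63% of each), and 43 of these were not among the D. mel WT members. In the eST cysts, where D. mel WT values chose the members, the members' median log2 fold change was 0.60 for D. mel WT over D. mel KO and 0.18 for D. mel WT over the replacement line, with 0.08 and -0.04 over all genes. Without D. mel WT eST replicate 4 the members' medians were 0.21 and -0.20, and the second was -0.01 without replacement eST replicate 3. These are descriptions, without a test.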
